A study of Homo sapiens with 22 samples.

Results

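The sequence tags described here are the 12-base tags of a luciferase reporter pool that hold ATTAAA, the commonest variant of the human polyadenylation signal hexamer, either as the tag is written or as its reverse complement TTTAAT. They were taken from 211385 tags that had at least 100 counts in both input DNA libraries. Of these, 539 held ATTAAA as written (540 with a tag that holds both, 0.255% of the tags) and 512 held TTTAAT (513 with that tag, 0.243%). The tag with both strings was set apart, which makes 1052 tags in all, and the other 210333 tags served as the comparison. The canonical hexamer AATAAA was held by 0 of the 238017 tags listed in any library, in either orientation, so every result below is about the variant alone.

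Human lung cancer lines took up the pool by transfection, A549 from an adenocarcinoma and H520 from a squamous cell carcinoma. The groups were A549 with 10 µM benzo(a)pyrene (BaP) for 18 h, A549 with DMSO, H520 with 10 µM BaP for 42 h and H520 with DMSO. BaP is a polycyclic aromatic hydrocarbon of tobacco smoke, and DMSO is the vehicle. Each group had 5 numbered transfections, and each line had 1 library of the input plasmid DNA, for 22 libraries in all. The title of the A549 input ends in v1 and that of the H520 input in v2, and what this marks is not known here. Both lines are established cultures, and no endogenous gene was read, so the labelled cell types could not be checked against markers. The lines differed in exposure time and in their input library as well as in cell type, and these cannot be told apart.

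In the 3′ end of a human transcript, the polyadenylation signal is bound by the cleavage and polyadenylation specificity factor, and the transcript is then cut a short distance downstream and given its poly(A) tail. AATAAA is the commonest and most efficient form of the signal, and ATTAAA is the next. The signal is read in the RNA, so it acts in the sense orientation only, and other elements around the cut site set how well it is used. The tags lay in the transcript of the reporter, and the RNA was selected for its poly(A) tail before the tags were amplified. The deposited strand field held the same mark for every tag. The sources used here do not say which strand of the transcript a tag is written in, so both orientations are described and neither is called sense.

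The absence of AATAAA was part of a wider pattern of absent words in the tag set. Of all possible hexamers, 2076 (50.7%) occurred in no listed tag. All 238017 tags held all 4 bases, and the words ACA, CAC, GTG and TGT and runs of 4 equal bases occurred in none. The 5-base words inside AATAAA were present, AATAA in 2830 tags and ATAAA in 1421. All tags ended in the same 3 constant bases, GGC, and neither hexamer could be completed across that junction.

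The sequences below are the tags that the results turn on. They are written 5′ to 3′ as deposited, without the constant end, and the capitals mark ATTAAA or TTTAAT. The first 3 and the next 3 are, for each orientation, the 2 tags with the lowest and the 1 with the highest level under DMSO among tags with at least 500 counts in both inputs (365 tags as written and 397 as reverse complement). The others have the smallest BaP p-value in a line, were called in H520 as described below, hold both strings, or are the deepest tags with the hexamer at the first or last possible position.
lowest as written: cATTAAAttgga
next lowest as written: ATTAAAtgcgtc
highest as written: ATTAAAcgtaat
lowest reverse complement: TTTAATtcgagg
next lowest reverse complement: gTTTAATaacct
highest reverse complement: cgTTTAATgaaa
smallest BaP p-value in A549: ttctcgTTTAAT
smallest BaP p-value in H520: gaTTTAATcaaa
above 0 in A549 and low in H520: TTTAATtccgac
high in both lines, less so in A549: ttgATTAAActc
deepest at position 1, as written: ATTAAAcgttgc
deepest at position 7, as written: tggccgATTAAA
deepest at position 1, reverse complement: TTTAATcgatta
deepest at position 7, reverse complement: acgacgTTTAAT
both strings: tttaATTAAAcg

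The level of a tag is log2 of its RNA TPM over its input TPM in the same line, minus the median of the other tags with equal GC count in that library, so that 0 is the typical tag of that GC count. The level of a set of tags is the median over its tags in a library. A ratio of RNA to plasmid does not separate how much RNA was made, how much was kept and how much was captured and copied. RNA libraries held 178 to 371 M counts, and the median hexamer tag had 490 to 1014 counts in a library. The inputs held 333 M counts for A549 and 266 M for H520.

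Tags holding ATTAAA or TTTAAT gave about as much RNA per plasmid as other tags of equal GC count, and slightly more in H520. The level of tags with ATTAAA as written was 0.019 ± 0.027 in A549 with BaP and 0.022 ± 0.013 in A549 with DMSO (SD, n = 5 each). In H520 it was 0.073 ± 0.013 with BaP and 0.068 ± 0.020 with DMSO (SD, n = 5 each), which is 1.05-fold in both. The tags with TTTAAT had levels of 0.0040 ± 0.018 in A549 with BaP and 0.027 ± 0.020 in A549 with DMSO, and of 0.055 ± 0.0064 in H520 with BaP and 0.044 ± 0.0090 in H520 with DMSO (SD, n = 5 each). No p-value is given for these levels, because the tags were chosen with results of these data known.

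As written, the 5 A549 libraries with BaP had levels of 0.055, 0.032, -0.0094, -0.0053 and 0.023, and the 5 with DMSO had 0.036, 0.027, 0.032, 0.0054 and 0.010. The 5 H520 libraries with BaP had 0.065, 0.067, 0.091, 0.081 and 0.061, and the 5 with DMSO had 0.060, 0.043, 0.078, 0.095 and 0.062. All 10 H520 libraries lay above 0, and under each treatment the ranges of the A549 and H520 libraries did not overlap. For TTTAAT the ranges of the lines did not overlap with BaP, where A549 libraries lay between -0.018 and 0.024 and H520 libraries between 0.047 and 0.064. They did overlap with DMSO, where A549 libraries lay between 0.0014 and 0.053 and H520 libraries between 0.031 and 0.056. The gap between the lines depended on the input library. With the input of the other line as denominator, tags with ATTAAA stood at 0.044 with BaP and 0.032 with DMSO in A549, and at 0.059 with BaP and 0.056 with DMSO in H520. The TTTAAT tags then stood at 0.0064 and 0.020 in A549 and at 0.046 and 0.051 in H520.

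The sign of these levels rests on the GC match. The tags held 2 to 6 G or C bases, fewer than most tags of the pool, and tags of low GC count gave less RNA per plasmid. Among the other tags in A549 with DMSO, the log2 median relative to the whole library was -0.16 ± 0.16 at 2 G or C bases and 0.014 ± 0.12 at 10 (SD, n = 5 each). In H520 with DMSO these medians were -0.42 ± 0.057 and 0.17 ± 0.038 (SD, n = 5 each). Against all other tags without the match, tags with ATTAAA stood at -0.068 in A549 with BaP, -0.042 in A549 with DMSO, -0.13 in H520 with BaP and -0.14 in H520 with DMSO. The TTTAAT tags then stood at -0.11, -0.056, -0.18 and -0.20 in the same order of groups. A match on the count of every base gave 0.012, 0.018, 0.063 and 0.055 for tags with ATTAAA, and 0.0098, 0.029, 0.060 and 0.050 for tags with TTTAAT.

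Single tags spread widely around these medians, much as the other tags did. In A549 with DMSO, the central 90% of tags with ATTAAA ran from -0.44 to 0.67 and that of other tags from -0.45 to 0.59. In H520 with DMSO, the same interval was -0.29 to 0.52 for tags with ATTAAA and -0.35 to 0.46 for other tags. The median SD of a tag over 5 transfections was 0.11 to 0.13 in each of the 4 groups for ATTAAA. The shares of tags with a mean above 0 in H520 were 61.4% with BaP and 59.6% with DMSO for ATTAAA, 56.4% and 56.6% for TTTAAT, and 49.1% and 49.0% for other tags. Tags above 0 in all 5 libraries made up 34.0% of those with ATTAAA in A549 with BaP, 31.4% in A549 with DMSO, 36.9% in H520 with BaP and 36.4% in H520 with DMSO, against 32.3%, 29.8%, 26.8% and 26.2% of all tags tested. For TTTAAT these shares were 33.2%, 32.0%, 35.5% and 35.0%. Tags below 0 in all 5 A549 libraries made up 26.5% with BaP and 25.4% with DMSO for ATTAAA and 30.5% and 25.2% for TTTAAT, against 31.7% and 29.2% of all tags. Tags below 0 in all 5 H520 libraries made up 15.0% with BaP and 14.8% with DMSO for ATTAAA and 20.3% under both treatments for TTTAAT, against 26.0% and 25.4% of all tags.

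The level varied with the place of the hexamer in the tag, and for ATTAAA the order of positions and of the lines changed when the 2 inputs were exchanged. Positions run from 1, where the hexamer opens the tag, to 7, where its last base meets the constant end. The values that follow use each line's own input. For ATTAAA in A549 with BaP, the levels at positions 1 to 7 were -0.053, 0.0017, -0.0075, 0.0077, 0.061, 0.066 and 0.015, and with DMSO they were -0.028, -0.019, 0.0019, 0.00015, 0.062, 0.063 and 0.014. For TTTAAT they were -0.049, -0.020, -0.049, 0.057, 0.12, 0.0075 and 0.047 with BaP, and -0.010, 0.023, -0.055, 0.080, 0.15, -0.000092 and 0.033 with DMSO. Position 5 was the highest for TTTAAT in A549, at 0.12 ± 0.044 with BaP and 0.15 ± 0.041 with DMSO (SD, n = 5 each), and was close to its level in H520, 0.14 ± 0.037 with BaP and 0.15 ± 0.0083 with DMSO (SD, n = 5 each). The A549 and H520 libraries overlapped there under both treatments.

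With its own input, the H520 level was low at the first positions and higher at the last. For ATTAAA in H520 with BaP, the levels at positions 1 to 7 were -0.11, 0.0095, 0.0088, 0.051, 0.14, 0.12 and 0.14, over 64, 61, 61, 64, 109, 96 and 84 tags. With DMSO they were -0.092, -0.029, -0.012, 0.036, 0.15, 0.13 and 0.13. Position 1 stood below 0 in all 10 H520 libraries and position 7 above 0 in all 10, and the library ranges, -0.13 to -0.043 and 0.11 to 0.18 with DMSO, did not overlap. With the A549 input as denominator, this order was mostly lost. The H520 levels of ATTAAA at positions 1 to 7 were then 0.0014, 0.080, 0.050, 0.043, 0.071, 0.12 and 0.015 with BaP, and -0.0056, 0.074, 0.038, 0.052, 0.054, 0.12 and 0.044 with DMSO. The A549 levels with the H520 input were -0.078, -0.13, 0.015, 0.045, 0.13, 0.058 and 0.099 with BaP, and -0.071, -0.13, 0.031, 0.086, 0.11, 0.058 and 0.069 with DMSO. With the inputs exchanged, A549 therefore had the wider range over positions and the higher level at position 7. The exchange shifts each tag by the ratio of the inputs, so it shows how far the order rests on the input used. It is not separate evidence on the lines. Over all tags in H520 with BaP, it raised the share called higher from 4.33% to 14.3%.

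TTTAAT had a similar order in H520 with its own input, and its highest level at position 7. Its levels at positions 1 to 7 in H520 with BaP were -0.052, -0.073, -0.0097, 0.078, 0.14, 0.079 and 0.28, over 127, 68, 61, 58, 63, 79 and 56 tags. With DMSO they were -0.086, -0.077, -0.014, 0.085, 0.15, 0.089 and 0.28. The 56 tags that end in TTTAAT stood at 0.047 ± 0.060 with BaP and 0.033 ± 0.046 with DMSO in A549 (SD, n = 5 each), with libraries on both sides of 0. In H520 they stood at 0.28 ± 0.030 with BaP and 0.28 ± 0.012 with DMSO (SD, n = 5 each), or 1.21-fold in both. In the H520 libraries with BaP they had levels of 0.25, 0.26, 0.29, 0.27 and 0.33, and in those with DMSO 0.30, 0.28, 0.28, 0.28 and 0.27. Of these 56 tags, 54 had a mean above 0 in H520 with BaP and 54 with DMSO, a share of 96.4%. No A549 library reached the lowest H520 library, 0.25. Without the GC match, against all other tags, they stood at -0.059 with BaP and -0.035 with DMSO in A549, and at 0.071 with BaP and 0.058 with DMSO in H520.

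The position values can be set beside those of every other hexamer at the same place. At position 7, 1816 hexamers had at least 30 tags, and TTTAAT ranked 25 from the highest in H520 with BaP and 25 with DMSO. Its median with DMSO was 0.28 by the tag means, above the upper end of the central 95% of those hexamers, 0.21. ATTAAA ranked 149 with BaP and 177 with DMSO there, inside the central 95%. At position 5, of 1583 hexamers, TTTAAT ranked 42 in A549 with BaP, 18 in A549 with DMSO, 56 in H520 with BaP and 38 in H520 with DMSO, and ATTAAA ranked 239, 139, 53 and 53. At position 1, of 1662 hexamers, ATTAAA ranked 1527 in H520 with BaP and 1398 with DMSO.

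A hexamer at an end of the tag also fixes the tag's first or last base, and those bases moved the other tags too. In H520 with DMSO, other tags that ended in T stood at 0.020 and those that ended in G at -0.069. A comparison with tags of equal GC count and equal first and last base, chosen after the position values were seen, put TTTAAT at position 7 at 0.0037 with BaP and -0.011 with DMSO in A549, and at 0.22 in H520 under both treatments. By the same match, TTTAAT at position 1 stood at -0.0051 with BaP and -0.037 with DMSO in H520. In H520, ATTAAA at position 1 stood at -0.078 with BaP and -0.069 with DMSO, and at position 7 at 0.14 with BaP and 0.13 with DMSO.

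Input abundance also moved with position. Tags with ATTAAA at position 1 had a GC-matched input level of -0.63 in A549 and -0.64 in H520, those at position 2 of -0.96 and -0.76, and those at position 7 of -0.0068 and 0.030. Tags that end in TTTAAT had 0.13 in A549 and 0.25 in H520. The ratio of the A549 to the H520 input was 0.061 on the log2 scale for these tags, against 0.017 for all tags with ATTAAA and -0.010 for all with TTTAAT. For ATTAAA at positions 1 to 7 this ratio was -0.083, -0.15, -0.016, 0.028, 0.067, -0.026 and 0.084. The part of input abundance in the position values was not tested. With the input of the other line as denominator, the level of tags that end in TTTAAT was 0.11 in A549 with BaP, 0.091 in A549 with DMSO, 0.27 in H520 with BaP and 0.25 in H520 with DMSO. By that denominator TTTAAT at position 1 stood at -0.0032 with BaP and -0.020 with DMSO in H520.

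In H520, levels also varied with the base beside the hexamer, though little with the base before ATTAAA. Tags in which G precedes ATTAAA numbered 273 and stood at 0.11 ± 0.019 with BaP and 0.097 ± 0.027 with DMSO in H520 (SD, n = 5 each). With A before ATTAAA (139 tags) the H520 level was 0.076 with BaP and 0.079 with DMSO. With C before it (63 tags) that level was 0.080 and 0.071. In A549, the tags with G before ATTAAA stood at 0.036 with BaP and 0.030 with DMSO. Those with A stood at -0.0021 and 0.0083 there, and those with C at 0.048 and 0.047. The 242 tags in which G precedes TTTAAT stood at 0.11 ± 0.0088 with BaP and 0.12 ± 0.0096 with DMSO in H520 (SD, n = 5 each). With A before TTTAAT (143 tags) the level in H520 was 0.049 with BaP and 0.048 with DMSO. In H520, tags with T after TTTAAT (137 tags) stood at -0.0098 with BaP and -0.029 with DMSO, and tags with G after it (72 tags) at 0.071 and 0.068. These sets share tags with the position sets and are not separate evidence.

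Most hexamer tags had a close relative among themselves, which the shared hexamer partly sets, and no such share was taken for other tags. Of the 539 tags with ATTAAA, 438 (81.3%) differed by 1 base from another of them, and of the 512 with TTTAAT, 434 (84.8%). Such pairs differed by a median of 0.28 in A549 with DMSO and 0.19 in H520 with DMSO for ATTAAA, and for TTTAAT by 0.25 and 0.19. Unrelated pairs were not measured for comparison. Each tag marks a cloned fragment that the files do not name, and related tags need not share one. The tags are therefore neither replicates of a condition nor a test of the hexamer on a fixed reporter.

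Tested one by one, a few percent of the hexamer tags stood apart from tags of equal GC count by more than 0.32 on the log2 scale. The shares called higher were near those of all tags, and in H520 the shares called lower were below them when tags were matched for GC count. Centred on the library median instead, H520 had 7.23% of hexamer tags called lower with BaP and 7.14% with DMSO, against 2.45% and 2.34% of all tags, and 2.28% and 2.57% called higher, against 4.75% and 4.45%. In A549 that centring gave 5.61% lower with BaP and 3.62% with DMSO, against 2.90% and 1.999% of all tags. The test was limma's treat with Benjamini-Hochberg adjustment over 211385 tags and a threshold of 0.05. In A549 with BaP, 44 tags with ATTAAA and 31 with TTTAAT were called higher, against 6.97% of all tags, and 12 and 15 lower, against 2.82%. In A549 with DMSO, 40 and 30 were called higher, against 6.15%, and 7 and 9 lower, against 2%. In H520 with BaP, 30 and 25 were called higher, against 4.33%, and 0 and 1 lower, against 1.06%. In H520 with DMSO, 27 and 21 were called higher, against 4.03%, and 0 and 2 lower, against 0.878%. As shares of their own sets, the higher calls ran from 5.01% to 8.16% for ATTAAA and from 4.10% to 6.05% for TTTAAT. Counts of lower calls moved when single libraries were left out. Over both orientations there were 27 in A549 with BaP, against 17 without BaP replicate 1, and 16 in A549 with DMSO, against 9, 7, 8 and 10 without DMSO replicates 1, 2, 4 and 5. In H520 the 1 lower call with BaP became 0 without BaP replicate 2 or 3 and 2 without BaP replicate 4, and the 2 with DMSO became 1 or 0 without any 1 DMSO replicate. At an unadjusted p of 0.05 the same limma test put 3 tags with ATTAAA lower in H520 with BaP and 2 with DMSO. Of the 512 tags with TTTAAT it put 8 and 5 lower, and of all 211385 tags 5633 and 5196. The edgeR fit with the input as offset called 6 hexamer tags lower in H520 with BaP, against 1 by limma. That was 0.571% of the hexamer tags, and the fit called 1.81% of all tags lower.

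Some higher calls were common to the lines. With BaP, 8 tags with ATTAAA were called higher in both lines, 18.2% of the A549 calls and 26.7% of the H520 calls, and 7 with TTTAAT, 22.6% and 28.0%. Over all tags with BaP, the shared calls made up 30.2% of the A549 calls and 48.6% of the H520 calls. With DMSO, 8 tags with ATTAAA were shared, 20% of the A549 calls and 29.6% of the H520 calls, and 6 with TTTAAT, 20% and 28.6%, against 32.0% and 48.9% over all tags. The difference from the pool was not tested. H520 had no lower call with ATTAAA and 1 or 2 with TTTAAT, so the lines could share at most that many lower calls, and they shared 0. Over all tags with BaP, the shared lower calls made up 7.19% of the A549 calls and 19.1% of the H520 calls. With DMSO these shares were 8.29% and 18.8%.

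Among deep tags, the highest with ATTAAA as written was ATTAAAcgtaat, which had 1142 counts in the A549 input and 974 in the H520 input. It stood at 3.35, 3.45, 3.16, 3.26 and 3.21 in the A549 libraries with BaP and at 3.50, 3.23, 3.24, 3.38 and 3.27 in those with DMSO. In H520 it stood at 3.33, 3.18, 3.33, 3.29 and 3.34 with BaP and at 3.35, 3.40, 3.37, 3.41 and 3.23 with DMSO. The 20 values lie within a narrow band about 10-fold above tags of equal GC count, with adjusted limma p-values of 2.5e-08, 6.1e-08, 7.7e-10 and 1.7e-09 in the 4 groups.

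The highest with TTTAAT, cgTTTAATgaaa, behaved differently in the lines. Its levels were 2.62, 3.07, 4.53, 4.35 and 4.91 in A549 with BaP and 3.97, 2.83, 3.18, 4.08 and 4.61 in A549 with DMSO. They were 1.99, 2.32, 2.40, 2.52 and 2.16 in H520 with BaP and 2.12, 2.30, 2.46, 2.58 and 2.24 in H520 with DMSO. Its A549 values were spread over more than 2 log2 units with BaP and did not overlap with those of H520. The difference A549 minus H520 was 1.62 ± 0.37 (SE) with BaP and 1.40 ± 0.28 (SE) with DMSO, with adjusted limma p-values of 0.037 and 0.026. Its input counts were 3854 in A549 and 1306 in H520.

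The deep low tags had group means of 0.59-fold to 0.82-fold, nearer to tags of equal GC count than the deep high tags were. The lowest as written, cATTAAAttgga, stood at -0.57 ± 0.27 in A549 with BaP, -0.76 ± 0.18 in A549 with DMSO, -0.33 ± 0.17 in H520 with BaP and -0.29 ± 0.072 in H520 with DMSO (SD, n = 5 each). It was called in A549 with DMSO alone, with an adjusted limma p of 0.0046. ATTAAAtgcgtc lay at -0.51 ± 0.060 in A549 with DMSO (SD, n = 5) with an adjusted limma p of 0.016, and its other 3 group means, -0.44, -0.40 and -0.37, missed the threshold. The lowest with TTTAAT, TTTAATtcgagg, had means of -0.51, -0.45, -0.50 and -0.56 in A549 with BaP, A549 with DMSO, H520 with BaP and H520 with DMSO. Its adjusted limma p-values were 0.013, 0.064, 0.10 and 0.018. Leaving out A549 BaP replicate 1 or 3, or H520 DMSO replicate 2, 3, 4 or 5, ended its call in that group at levels of -0.50, -0.50, -0.54, -0.54, -0.54 and -0.55. The call of ATTAAAtgcgtc ended without A549 DMSO replicate 1, 2 or 5, at -0.49, -0.50 and -0.51. gTTTAATaacct had means of -0.42, -0.37, -0.44 and -0.36 in the same groups, and no call.

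In H520, 1 hexamer tag was called lower under both treatments, and TTTAATtcgagg was the other call with DMSO. That tag, TTTAATtccgac, stood at 0.13, 0.25, 0.48, 0.44 and 0.64 in A549 with BaP and at 0.47, 0.45, 0.34, 0.35 and 0.61 in A549 with DMSO. In H520 it stood at -0.46, -0.54, -0.44, -0.39 and -0.56 with BaP and at -0.62, -0.50, -0.40, -0.60 and -0.72 with DMSO. All A549 values were above 0 and all H520 values below. The tag's input was 3.39 TPM (1132 counts) in A549 and 5.15 TPM (1369 counts) in H520. Its mean RNA was 3.59 TPM with BaP and 3.81 with DMSO in A549, and 3.12 and 2.93 in H520. The lines thus differed more in input TPM than in RNA TPM, and the error of the input is in no p-value. The difference A549 minus H520 was 0.87 ± 0.087 (SE) with BaP and 1.01 ± 0.073 (SE) with DMSO, with adjusted limma p-values of 0.0012 and 7.3e-05. It was picked after its values were seen.

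The deepest tags at the ends of the position range were shown for their low counting error. tggccgATTAAA, with 4873 and 3712 input counts in A549 and H520, stood at 0.037 ± 0.076 in A549 with BaP, 0.020 ± 0.053 in A549 with DMSO, 0.39 ± 0.062 in H520 with BaP and 0.36 ± 0.037 in H520 with DMSO (SD, n = 5 each). ATTAAAcgttgc stood at -0.19, -0.17, -0.28 and -0.26 in these groups. acgacgTTTAAT stood at 0.18, 0.10, 0.20 and 0.23, and TTTAATcgatta at -0.21, -0.15, -0.0071 and -0.056. None of the 4 tags was called against the limit of 0.32 in any group. The tag with both strings, tttaATTAAAcg, where TTTAAT starts at position 1 and ATTAAA at position 5, stood at 0.086 ± 0.087, 0.15 ± 0.13, 0.52 ± 0.082 and 0.33 ± 0.12 (SD, n = 5 each).

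Between the lines, hexamer tags were called both ways in numbers close to the pool's. With BaP, 23 tags with ATTAAA and 18 with TTTAAT were called higher in A549 by limma's treat with the same limit, against 4.03% of all tags, and 18 and 18 lower in A549, against 2.85%. With DMSO, 17 and 21 were called higher in A549, against 3.42%, and 16 and 12 lower, against 2.21%. The median of A549 minus H520 over the tags with ATTAAA was -0.062 with BaP and -0.050 with DMSO, over those with TTTAAT -0.048 and -0.040, and over all tags -0.0061 and -0.0071. Across tags, the levels in A549 and H520 had a Pearson r of 0.474 with BaP and 0.468 with DMSO for ATTAAA, 0.506 and 0.517 for TTTAAT, and 0.546 and 0.554 for other tags. These are descriptions over 539, 512 and 210333 tags that share libraries.

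The largest line difference among the tags printed above, apart from cgTTTAATgaaa, was in ttgATTAAActc. Its levels were 1.54, 1.18, 1.02, 1.08 and 0.94 in A549 with BaP and 1.07, 1.30, 1.12, 1.04 and 1.06 in A549 with DMSO. They were 2.62, 2.58, 2.52, 2.61 and 2.66 in H520 with BaP and 2.59, 2.44, 2.34, 2.47 and 2.56 in H520 with DMSO. The tag was high in all 20 libraries, and the lines did not overlap. The difference A549 minus H520 was -1.44 ± 0.096 (SE) with BaP and -1.36 ± 0.068 (SE) with DMSO, with adjusted limma p-values of 8.2e-06 and 1.0e-06. It was picked after its values were seen, as the hexamer tag called for BaP in H520 by the alternative fit with transfection number.

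No hexamer tag passed the main test for a BaP response in either line. With transfection number as a block, 1 did in H520 (0.0951%, higher), against 0.0416% of all tags higher and 0.0312% lower. The main test had no block. By edgeR's quasi-likelihood test on the counts, with Benjamini-Hochberg adjustment, 0 hexamer tags were called in A549 and 0 in H520, against 0% of all tags in each direction, and DESeq2 called 0 as well. At an unadjusted p under 0.05 in A549, 5 tags with ATTAAA were higher and 8 lower, and 1 tag with TTTAAT was higher and 17 lower, against 1.16% higher and 1.40% lower of all tags. In H520, 14 and 15 tags were higher and 12 and 7 lower, against 2.34% and 2.38%. On simulated data, where changed tags were all raised, the same test called 22% of tags changed by 0.32 on the log2 scale in A549 and 52% in H520. It called 93% and 100% of those changed 1.5-fold. The simulation used a common dispersion for all tags of a line and no drift by GC count. Real tags were less even, and cgTTTAATgaaa had an SE of 0.53 for its log2 ratio in A549. The simulated shares therefore need not hold for real tags.

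In A549 most hexamer tags had a BaP over DMSO ratio below 0 and in H520 most had one above 0, though none passed the main test. In A549, 35.6% of tags with ATTAAA and 27.5% of those with TTTAAT had a positive BaP over DMSO log2 ratio, against 49.2% of all tags, with medians of -0.025 and -0.044. In H520 these shares were 53.6% and 56.2%, against 49.8% of all tags, with medians of 0.0074 and 0.014. The ratios are not matched for GC. Other tags with 2 G or C bases stood at -0.21 ± 0.14 in A549 with BaP and -0.16 ± 0.16 in A549 with DMSO relative to the library median (SD, n = 5 each). The GC-matched level of tags with ATTAAA differed by -0.0029 between BaP and DMSO in A549 and by 0.0054 in H520, with pooled SDs of 0.021 and 0.016. For TTTAAT the difference was -0.023 in A549 and 0.011 in H520, with pooled SDs of 0.019 and 0.0078. The BaP and DMSO libraries overlapped in all 4 of these comparisons. Between same-numbered libraries, TTTAAT stood higher with BaP in 5 of 5 in H520 and in 1 of 5 in A549. For ATTAAA it was 3 of 5 in each line.

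The smallest BaP p-value among hexamer tags in A549 was that of ttctcgTTTAAT. Its levels were 0.43, 0.38, 0.37, 0.31 and 0.33 with BaP and 0.33, 0.63, 0.68, 0.54 and 0.54 with DMSO. The log2 ratio was -0.23 ± 0.077 (SE), with an unadjusted edgeR p of 0.0084 and an adjusted p of 1. In H520 it was that of gaTTTAATcaaa, at -0.00047, 0.24, 0.32, 0.33 and 0.36 with BaP and 0.11, -0.029, -0.0083, -0.026 and -0.35 with DMSO. The log2 ratio was 0.33 ± 0.10 (SE), with an unadjusted edgeR p of 0.0020 and an adjusted p of 0.998. In both tags the treatments overlapped through 1 library.

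Other hexamers known as weaker polyadenylation signals were mostly above 0 as written and mostly below 0 as reverse complements. Of a list of 10, 7 occurred in the tags as written. By the median over tags, 6 of the 7 were above 0 in A549 with BaP, 5 in A549 with DMSO, 6 in H520 with BaP and 6 in H520 with DMSO, with a list median of 0.068 in H520 with BaP and 0.051 with DMSO. As reverse complements 9 occurred, and 1, 2, 1 and 2 of them were above 0, with list medians of -0.019 and -0.0038 in H520. Over all hexamers with at least 50 tags, the H520 medians were -0.0075 with BaP and -0.0059 with DMSO. The 2 lists are not the same words, since TTTATA and TATATT occurred but their partners TATAAA and AATATA did not. The words as written hold more A than T and the reverse complements more T than A. The GC match does not balance this, and its part was not tested. GATAAA stood at 0.099 in H520 with BaP and 0.091 with DMSO, and its reverse complement TTTATC at -0.0052 and 0.0043. AATAGA was below 0 in all 4 groups, at -0.044, -0.036, -0.045 and -0.036. Its reverse complement TCTATT was the lowest of the list, at -0.14 in H520 under both treatments, below the central 95% of all hexamers there. TATATT stood at -0.097 with BaP and -0.085 with DMSO in H520. Of the 18 hexamers 1 base from ATTAAA, 13 occurred, with medians over the list of 0.042 in H520 with BaP and 0.041 with DMSO.

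Over all 1977 hexamers with at least 50 tags, ATTAAA ranked 577 from the highest in A549 with BaP, 637 in A549 with DMSO, 136 in H520 with BaP and 217 in H520 with DMSO. TTTAAT ranked 1026, 468, 272 and 369. Both lay inside the central 95% of hexamers in all 4 groups, which ran from -0.13 to 0.12 in H520 under both treatments. The ends of the order were far wider. GGTAAG was the lowest in A549, at -0.29 with BaP and -0.32 with DMSO. CATGGC was the highest in both lines, at 0.29 in A549 under both treatments and at 0.62 in H520 with BaP and 0.54 with DMSO, and CTAGGG the lowest in H520, at -0.41 and -0.44.

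Tags close to the limit of 100 input counts rest on few input reads. The 10 tags with ATTAAA just inside it, with 102 to 120 counts in the smaller input, had medians of -0.24 in A549 with BaP, -0.17 in A549 with DMSO, 0.11 in H520 with BaP and 0.12 in H520 with DMSO. The 10 just outside, with 79 to 99 counts, had 0.22, 0.13, 0.21 and 0.29. For TTTAAT the 10 just inside had -0.21, -0.31, -0.065 and 0.024, and the 10 just outside had -0.028, -0.050, 0.22 and 0.10. In all, 81 tags with ATTAAA and 66 with TTTAAT fell under the limit, of which 30 and 21 had no count in at least 1 input.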

How the data were processed

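Per the labels' protocols, polyadenylated RNA was selected from transfected cells and copied into cDNA, and short stretches around the tags were amplified by PCR. No molecular identifiers are named, so reads are not independent molecules. bcl2fastq is named in the submitters' processing notes. The step that assigned reads to tags was not given in the sources used here. The deposited files, per the file headers, give a raw read count for each tag, the library's total and a TPM value, which equals the count divided by the total in M.

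The members and lists were chosen with earlier results of these data known. Counts were joined on the tag, with 0 where a library did not list it. Levels were log2((RNA TPM + 0.01)/(input TPM + 0.01)), minus the median of tags with equal GC count and neither string (at least 50 tags). limma 3.58.1 (treat, minimum 0.32 on the log2 scale) tested levels within groups and A549 minus H520, and edgeR 4.0.16 (quasi-likelihood, TMM, filterByExpr) tested BaP against DMSO, in R 4.3.3 with Benjamini-Hochberg adjustment at 0.05 over 211385 tags. DESeq2 1.42.0 was an alternative. Python 3.11.15, pandas 2.3.3 and numpy 2.4.6 did the rest. Each line had 1 input, whose error is in no p-value, and the labels do not tie transfections to separate cultures, so p-values measure the spread between transfections, which may be technical.

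Named tags were the 2 lowest and 1 highest per orientation under DMSO, at 500 or more input counts, and the smallest BaP p-value per line. The tags called lower in H520, a tag called with the replicate block and the deepest at positions 1 and 7 were added after values were seen. Tested on simulated data over 211385 tags, the activity test called 34.5% of tags lowered 1.5-fold in A549 and 61.5% in H520, and 0% of those lowered by 0.32 on the log2 scale. The BaP test's share of false calls there was 4.44% in A549 and 6.67% in H520. The simulated counts had a common dispersion per line and no drift by GC count, so these shares need not hold for real tags.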

Additional observations from a re-analysis of the deposited data

Results flagged for a closer look

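In H520 with DMSO, TTTAATtcgagg stood at -0.358 in replicate 1, apart from the other 4 libraries of the group, which lay between -0.616 and -0.589. The gap to the nearest library was 0.896 of the group's range, over the limit of 0.71 for 5 samples. It was 1 of 88 sets of 5 values examined, and chance puts about 1 in 20 over that limit.

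Outside the main measurement, 21 tags holding ATTAAA or TTTAAT had no count in either input. Tags were taken if any library listed them, so such tags had counts in RNA libraries by the way they were chosen. Their summed RNA counts reached 18 in the highest library and 2 in the lowest, and were over 3 in 15 of 20 libraries. That limit is for a single count of 0 and not for a sum over tags chosen this way, so nothing is concluded from it. The highest count of such a tag in a library was 9, against library medians of 490 to 1014 counts for the hexamer tags with enough input. No control library without the pool was used here to compare them with.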

How the results depend on the processing

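Of 440 values that answer a comparison, recomputed under other settings, 336 stayed within a set limit and 104 moved. On leaving out a library 187 stayed and 13 moved, and under the other alternatives 149 stayed and 91 moved. For none of the moves was the cause tested except where the setting itself sets it. The limit was the SD over transfections for a level or a BaP minus DMSO difference, and 1.5-fold for a count. Levels and differences could not pass it when 1 library was left out, and the block cannot change a difference. A value within the limit could change sign. For ATTAAA in A549, BaP minus DMSO was -0.0029, and 0.012 with the other line's input. Groups are given in the order A549 BaP, A549 DMSO, H520 BaP, H520 DMSO. Against all other tags, levels were -0.068, -0.042, -0.13 and -0.14 for ATTAAA and -0.11, -0.056, -0.18 and -0.20 for TTTAAT, and BaP minus DMSO in A549 was -0.026 and -0.049. The mean over tags gave 0.053, 0.049, 0.094 and 0.091 for ATTAAA and 0.040, 0.054, 0.071 and 0.066 for TTTAAT. In H520 with BaP, ATTAAA stood at 0.059 with the other line's input, and TTTAAT at 0.046 with that input, 0.047 with the mean of both inputs and 0.045 with a pseudocount of 0.5 TPM. With equal first and last base TTTAAT stood at 0.064 with BaP and 0.056 with DMSO in H520. With the other line's input its BaP minus DMSO difference in H520 was -0.0056.

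Counts of hexamer tags called depend mainly on the minimum fold. With none, higher calls were 366, 319, 386 and 372 and lower calls 301, 260, 183 and 187. At 1.5-fold they were 27, 24, 18 and 16 and 2, 2, 0 and 0, and at 2-fold 8, 8, 7 and 8 and 0, 1, 0 and 0. Line calls were 208 higher and 335 lower with BaP and 198 and 299 with DMSO with no minimum, and 1, 1, 2 and 1 at 2-fold. Centred on the library median, lower calls were 59, 38, 76 and 75, and higher calls 24 and 27 in H520. With the other line's input, higher calls were 157, 138, 172 and 176 and lower calls 136, 110, 87 and 88. With the mean of both inputs, lower calls were 51, 30, 23 and 20, higher calls 75 in H520 with DMSO, and line calls 75 and 113 with BaP and 68 and 105 with DMSO. edgeR with the input as offset gave 40 lower calls in A549 with DMSO and 6 in H520 with BaP, and 68 and 51 line calls lower in A549. A pseudocount of 0.5 TPM gave 4 and 5 lower calls in A549, an input minimum of 500 gave 9 and 9 there and 3 in H520 with BaP, and a minimum of 10 gave 0 in H520 with BaP. As shares, with no minimum fold the higher calls were 34.8%, 30.4%, 36.7% and 35.4% of hexamer tags, against 32.6%, 29.3%, 26.3% and 25.4% of all tags, and the lower calls 28.6%, 24.7%, 17.4% and 17.8%, against 31.9%, 28.2%, 25.4% and 24.3%. At 1.5-fold the higher calls were 2.57%, 2.28%, 1.71% and 1.52%, against 2.27%, 2.17%, 1.84% and 1.68%. At 2-fold they were 0.761%, 0.761%, 0.666% and 0.761%, against 1.04%, 1.10%, 0.910% and 0.894%. The lower calls at 1.5-fold were 0.190%, 0.190%, 0% and 0%, against 0.235%, 0.168%, 0.132% and 0.106%. At 2-fold the lower calls were 0%, 0.0951%, 0% and 0%, against 0.0175%, 0.0189%, 0.0199% and 0.0194%. With the other line's input the higher calls were 14.9%, 13.1%, 16.4% and 16.7%, against 13.4%, 12.2%, 14.3% and 13.9%, and the lower calls 12.9%, 10.5%, 8.28% and 8.37%, against 11.6%, 10.1%, 11.1% and 10.8%. With the mean of both inputs the lower calls were 4.85%, 2.85%, 2.19% and 1.90%, against 4.46%, 3.33%, 3.35% and 3.03%. The higher calls in H520 with DMSO were then 7.14%, against 5.64%. The line calls were 7.14% higher and 10.8% lower with BaP, against 8.92% and 8.91%. With DMSO they were 6.47% and 9.99%, against 7.90% and 7.64%. Line calls with no minimum were 19.8% higher and 31.9% lower with BaP and 18.8% and 28.4% with DMSO, against 25.1%, 25.5%, 22.4% and 22.5% of all tags. At 2-fold they were 0.0951%, 0.0951%, 0.190% and 0.0951% in the same order, against 0.176%, 0.0965%, 0.194% and 0.0681%. The edgeR lower calls were 3.81% in A549 with DMSO and 0.571% in H520 with BaP, against 4.24% and 1.81%. Its line calls lower in A549 were 6.47% and 4.85%, against 4.58% and 3.74%. The pseudocount of 0.5 TPM gave 0.381% and 0.476% lower in A549, against 1.17% and 0.853%. The input minimum of 500 gave 1.18% in both, against 2.05% and 1.55%, and 0.394% in H520 with BaP, against 1.41%. The minimum of 10 gave 0% lower in H520 with BaP, against 0.954%.

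On leaving out each replicate, levels ran over 0.010 to 0.026, 0.018 to 0.026, 0.068 to 0.076 and 0.061 to 0.074 for ATTAAA, and over -0.00086 to 0.0095, 0.020 to 0.033, 0.052 to 0.057 and 0.041 to 0.048 for TTTAAT. BaP minus DMSO ran over -0.012 to 0.0042 in A549 and -0.00069 to 0.012 in H520 for ATTAAA, and over -0.029 to -0.016 and 0.0073 to 0.014 for TTTAAT. Higher calls ran over 64 to 69, 50 to 76, 40 to 51 and 42 to 45, and lower calls over 17 to 26, 7 to 22, 0 to 2 and 0 to 1. Line calls ran over 29 to 40 higher and 27 to 37 lower with BaP, and over 29 to 39 and 22 to 34 with DMSO. BaP calls were 0 to 0 throughout.

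With the transfection number as replicate block, 1 hexamer tag was called for BaP in H520, ttgATTAAActc, at a log2 ratio of 0.12 and an adjusted edgeR p of 0.039. The block moved the calls over all tags in H520 to 88 higher and 66 lower, against 0 and 0 without it, and left them at 0 in A549. The titles give the same numbers to both treatments without stating a pairing, and the main test did not use them as pairs. Deviations of same-numbered libraries from their group means had correlations between 0.0040 and 0.37 in A549, and between 0.036 and 0.13 in H520, over 0.1 in 3 of 5 and 1 of 5 pairs, while 5 of 10 A549 libraries and 9 of 10 H520 libraries correlated best with their own number. Between same-numbered libraries, the TTTAAT level in H520 was higher with BaP in 5 of 5, by 0.011 with an SD of 0.0086, and the other 3 comparisons had 3 of 5 (ATTAAA in A549), 3 of 5 (ATTAAA in H520) and 1 of 5 (TTTAAT in A549). At 100 input counts, single tags near the limit carry the largest counting error, and 1 input per line sets the line comparisons.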
